A study of Mus musculus with 16 samples.

Results

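The 10 macrophage marker genes Itgam, Cd163, Mrc1, Csf1r, Cd68, Fcna, Clec12b, Chil3, C1qa and C1qb were followed in dorsal skin of iK5-TERT mice, on every probe set annotated to 1 of these symbols alone. They were 10 of 12589 genes with a probe set above the lower limit of the analysis, and 14 of 45101 probe sets on the array, since C1qb and Csf1r had 3 each. All 10 genes passed the limit, an intensity above 34.4 on 2 or more arrays. Chil3 and Clec12b passed it only through TERT-off arrays, since each was above 34.4 on just 1 TERT-on array. A further probe set, annotated to both Chil4 and Chil3, was left out.

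In iK5-TERT mice a K5-tTA transgene drives tetop-TERT in basal keratinocytes and the outer root sheath, and doxycycline switches it off. All 4 mice carried these transgenes, had been kept on doxycycline water (5 µg/ml) until postnatal day 10 to 21, and were labelled as day 60. The TERT-on cohort (2 mice) was injected with vehicle and the TERT-off cohort (2 mice) with doxycycline (8 µg/g), and each mouse gave a dorsal biopsy of 3 cm² at 0, 6, 12 and 24 h. By the labels the 0 h biopsies of TERT-off mice came after doxycycline; by the methods of the study, used here, they came just before it. A replicate number within a cohort was read as 1 mouse biopsied serially, which the labels do not say outright. Each of the 8 groups held 2 arrays. The subcutaneous fat was removed, and the tissue held epidermis, follicles and dermis with the blood and immune cells in them. In such bulk tissue, fewer cells of a type and less RNA per cell cannot be told apart.

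Macrophages live in the dermis as long-lived resident cells and are joined in inflamed or repairing skin by monocytes from the blood. Resident dermal macrophages carry scavenger receptors and make complement C1q, while monocytes, neutrophils and freshly recruited macrophages carry the integrin chain Itgam. Csf1r, the receptor of the growth factors Csf1 and Il34, maintains the lineage. The 10 genes were read in these 3 groups. Cd163, Mrc1, C1qa, C1qb and Fcna were the resident genes, Csf1r and Cd68 were genes of all macrophages, and Itgam, Chil3 and Clec12b were genes of recruited or activated myeloid cells. None of them is specific to its group: Itgam and Chil3 are also made by neutrophils.

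Values below are intensities on a linear scale or log2 differences, TERT-off minus TERT-on. The Tert probe set, which reads the gene that doxycycline silences, was at 185 to 200 at 0 h and 8.32 to 16.1 at 6 to 24 h in TERT-off mice, and the TERT-on mice had 216 to 357 at 0 h and 22.6 to 64.6 later, so it was lower after 0 h in both cohorts. The 0 h array of TERT-on replicate 1 had a 5′ to 3′ Gapdh ratio of 0.0599, where the other 15 had 0.977 to 1.12, and it gave the lowest intensity of the 16 arrays for 7 of the 10 genes. TERT-off replicate 1 stood apart in another way, at 0 h and later. Over 9 keratins of the hair shaft, its log2 intensity averaged 4.19 at 0 h, against 11.21 in TERT-off replicate 2 and, for TERT-on, 10.65 and 9.28. At 6, 12 and 24 h it was 3.78, 3.79 and 3.94 in TERT-off replicate 1 and 10.91, 6.74 and 5.95 in TERT-off replicate 2. TERT-on replicate 1 had 10.92, 10.00 and 8.91, and TERT-on replicate 2 had 11.15, 11.24 and 11.32. Over 6 to 24 h, hair keratin level and cohort therefore went together in part, and its share in the 10 genes was not tested. This keratin list was added after the values had been seen.

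The promoters of 3 of the genes are shown because, among the genes with a promoter in the table used, these had the largest changes from 0 h within TERT-off mice (C1qa, with the third largest change of the 10, has no entry there). They were taken from the RefSeq table of GRCm38.p6 and run from 250 bases before to 50 bases after the start of the gene. The window of Fcna lies at chr2:25627925-25628224 on the minus strand, Itgam at chr7:128062390-128062689 on the plus strand and Cd163 at chr6:124304401-124304700 on the plus strand. Capitals mark GAGGAA or its reverse complement TTCCTC, a purine-rich core that the myeloid factor PU.1, encoded by Spi1, can bind.
Fcna: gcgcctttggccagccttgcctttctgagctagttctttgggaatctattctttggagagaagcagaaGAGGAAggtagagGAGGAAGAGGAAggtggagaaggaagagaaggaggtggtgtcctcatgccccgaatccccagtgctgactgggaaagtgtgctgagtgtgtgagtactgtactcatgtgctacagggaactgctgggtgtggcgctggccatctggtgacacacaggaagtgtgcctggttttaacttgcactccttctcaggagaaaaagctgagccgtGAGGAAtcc
Itgam: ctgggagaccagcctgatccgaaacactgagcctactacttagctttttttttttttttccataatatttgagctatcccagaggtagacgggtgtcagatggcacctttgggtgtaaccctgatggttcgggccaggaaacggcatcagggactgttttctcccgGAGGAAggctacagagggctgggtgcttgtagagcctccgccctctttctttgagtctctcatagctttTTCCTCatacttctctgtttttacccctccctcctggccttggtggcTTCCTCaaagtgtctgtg
Cd163: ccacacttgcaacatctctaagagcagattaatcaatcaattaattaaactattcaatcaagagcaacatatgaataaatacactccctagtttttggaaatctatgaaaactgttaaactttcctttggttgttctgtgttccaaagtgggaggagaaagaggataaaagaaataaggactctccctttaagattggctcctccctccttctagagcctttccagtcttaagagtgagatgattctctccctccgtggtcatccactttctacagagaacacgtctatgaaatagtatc
The motif occurred 4 times in the Fcna window, 3 times in that of Itgam and not in that of Cd163. It was present in 5 of the 8 member promoters searched and in 28.3% of all 32851 promoters of the table. The promoters of C1qa and Csf1r were not searched. Mrc1, C1qb and Cd68 also held it, while Chil3 and Clec12b did not. A match of 6 letters describes the window and is not a binding site.

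Over 6 to 24 h all 10 genes were higher in the TERT-off than in the TERT-on cohort, with a median log2 difference of 1.62 and a range from 0.98 for Csf1r to 2.63 for Fcna. Each passed the limma test at an adjusted p from 0.000515 to 0.0336. Over all 12579 genes tested, the median was 0.04, and 16.9% were higher at the same threshold. For 6 of the 10, all TERT-off arrays of 6 to 24 h lay above all TERT-on arrays, which held for 6.59% of all genes. In the other 4, C1qa, C1qb, Csf1r and Cd68, the TERT-off array that fell within the TERT-on range was that of replicate 2 at 6 h, and the highest TERT-on array was that of replicate 1 at 12 h. Fcna, Clec12b and Chil3 were known to differ strongly when the set was chosen, so their place here is no independent support. Clec12b and Chil3 also passed the filter only through TERT-off arrays, which favours a higher TERT-off value. With fewer mice fewer genes were called: 6 without TERT-on replicate 1, and 2, Clec12b and Fcna, without TERT-on replicate 2, all 10 estimates staying above 0. With the arrays centred on their medians, all 10 genes stayed called, while the split of all called genes moved from 2120 higher and 1588 lower to 1755 higher and 2120 lower.

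**Figure D1:**
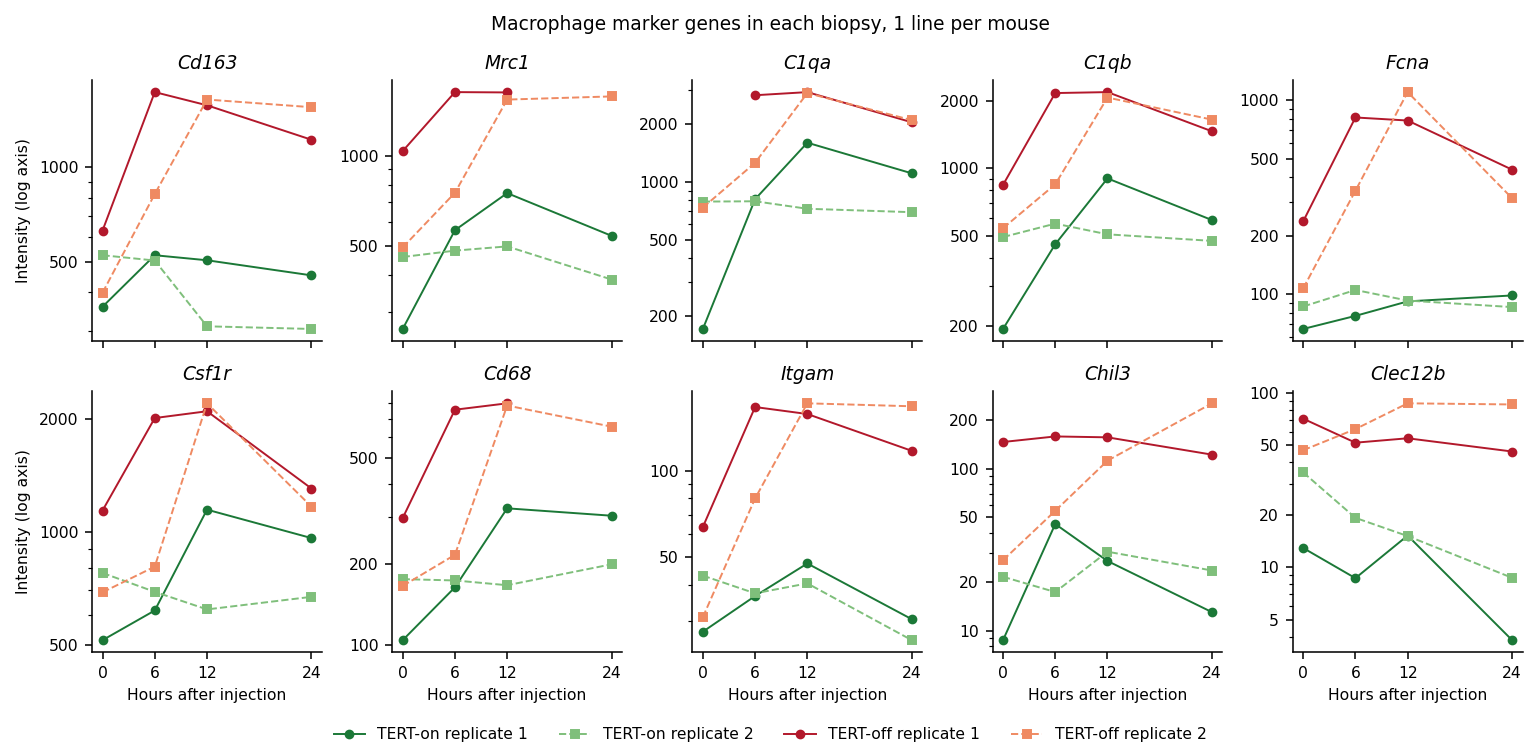
Intensity of the 10 genes on a log axis by hour of biopsy, each line joining the biopsies of a mouse; a gap is an empty cell of the deposited table. TERT-off replicate 1 was above all TERT-on arrays at 6 h for all 10 genes (27.1% of all genes measured), and TERT-off replicate 2 for 6 of them (15.9%).

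Among the resident genes, Fcna differed most. It encodes ficolin A, a secreted lectin of macrophages that starts the lectin pathway of complement. Its intensity at 0, 6, 12 and 24 h was 237, 814, 785 and 438 in TERT-off replicate 1 and 107, 341, 1100 and 312 in TERT-off replicate 2. In the TERT-on mice it lay between 66.1 and 105 on all 8 arrays, below every TERT-off array. The log2 difference over 6 to 24 h was 2.63 (standard error 0.25, adjusted p = 0.000515 from limma). It was the only one of the 10 genes that passed at 6, 12 and 24 h alike.

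Cd163, the scavenger receptor for haptoglobin-haemoglobin complexes, was 628, 1735, 1575 and 1223 in TERT-off replicate 1 and 398, 821, 1643 and 1553 in TERT-off replicate 2 at the 4 times. In TERT-on skin it was 359, 524, 505 and 452 in replicate 1 and 524, 504, 311 and 305 in replicate 2. Both cohorts overlapped at 0 h and were separate from 6 h on. The log2 difference over 6 to 24 h was 1.71 (standard error 0.23, adjusted p = 0.00181 from limma). Mrc1, the mannose receptor CD206, had a log2 difference of 1.44 (standard error 0.28). Its TERT-off values of 6 to 24 h ran from 752 to 1630 over 5 arrays, 1 cell being empty, and its TERT-on values from 386 to 750, so the groups were separate by a narrow margin.

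C1qa and C1qb encode chains of C1q, which opens the classical pathway of complement. In TERT-off replicate 1, whose 0 h cell is empty, C1qa was 2822, 2930 and 2040 at the later times, and TERT-off replicate 2 went from 733 to 1255, 2896 and 2093. In TERT-on replicate 1 it was 171, 811, 1597 and 1106, and in TERT-on replicate 2 it was level at 694 to 791. The 2 TERT-on mice therefore differed from each other at 12 h, and C1qa had the largest adjusted p of the 10 genes over 6 to 24 h (log2 difference 1.30, standard error 0.39, adjusted p = 0.0336 from limma). C1qb differed by 1.53 (standard error 0.29), and its other 2 probe sets by 1.46 and 1.68.

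Of the genes shared by all macrophages, Csf1r differed least. It was 617, 1147 and 963 at 6, 12 and 24 h in TERT-on replicate 1 and 692, 621 and 671 in TERT-on replicate 2. In TERT-off skin it was 2015, 2101 and 1306 in replicate 1 and 808, 2206 and 1168 in replicate 2. The log2 difference over 6 to 24 h was 0.98 (standard error 0.25; limma, adjusted p = 0.017), and 1.14 and 0.91 on its other 2 probe sets. Cd68, a lysosomal glycoprotein of phagocytes, differed by 1.51 (standard error 0.35). Its TERT-off values ran from 217 to 801 over 5 arrays and its TERT-on values from 164 to 324.

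The 3 genes of recruited or activated cells had a median difference of 2.42, the resident genes 1.53 and the 2 genes of all macrophages 1.24. The 2.42 is the value of both Chil3 and Clec12b. These passed the filter only through TERT-off arrays and were known to differ strongly when chosen, so the larger median is no independent result. These group medians cover few genes and were not tested against each other. The groups are not distinct on these arrays. By Pearson's r of log2 intensities, Itgam varied with the resident genes Cd163 (0.973), Mrc1 (0.948), Fcna (0.941) and C1qb (0.929) more closely than with Chil3 (0.897) or Clec12b (0.797). With the resident gene C1qa it was 0.844, under that with Chil3. Each r spans both cohorts and so includes the difference between them. Itgam, the CD11b chain of the integrin Mac-1, was 63.7, 166, 157 and 117 in TERT-off replicate 1 and 31.0, 80.0, 171 and 167 in TERT-off replicate 2. It lay between 25.8 and 47.6 on all 8 TERT-on arrays, and its log2 difference over 6 to 24 h was 1.95 (standard error 0.24, adjusted p = 0.00149 from limma). At 0 h TERT-off replicate 2 was within the TERT-on range, and by 6 h both TERT-off mice were above it.

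Chil3, the chitinase-like lectin Ym1 of alternatively activated macrophages and neutrophils, behaved differently in the 2 TERT-off mice. Replicate 1 was level, at 146, 158, 156 and 122 from 0 to 24 h, while replicate 2 went from 27.2 to 54.9, 112 and 253. The TERT-on arrays of 6 to 24 h lay between 13 and 45.5, and the log2 difference was 2.42 (standard error 0.49, adjusted p = 0.00729 from limma). Clec12b, an inhibitory C-type lectin receptor, also differed by 2.42 or more (standard error 0.31), since its TERT-on replicate 1 value at 24 h lay under the floor of 7.71. The size depends on how low values are handled, and was 1.54 with 16 added to each value in place of the floor. Its TERT-off values were between 46.1 and 87.1 on all 8 arrays, and its TERT-on values went from 12.9 and 35.0 at 0 h to 3.82 and 8.70 at 24 h. It thus differed through low TERT-on values as well as high TERT-off values, and its change from 0 h within TERT-off mice was 0.12 (standard error 0.39).

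At 0 h none of the 10 genes passed the limma test (lowest adjusted p = 0.541), although all 10 estimates were above 0 and 5 had an unadjusted p under 0.05. Of all genes, 0.0318% were higher at 0 h by the adjusted p, 47.1% had an estimate above 0 and 7.94% had an unadjusted p under 0.05. The estimates ran from 0.20 for Cd163 to 2.20 for Chil3, with a median of 1.04. Without the array of low Gapdh ratio the median was 0.35, with a range from −0.13 to 1.53. The C1qa estimate used 1 TERT-off array, the cell of the other being empty. The 2 TERT-off mice were unlike at this time. TERT-off replicate 1, with its low hair keratins, was above all 8 TERT-on arrays for 6 of the 9 genes with a value, where 24.3% of all genes were. TERT-off replicate 2 was so for 2 of 10, Fcna and Clec12b, where 10.7% of all genes were. Without TERT-off replicate 2, Fcna passed at 0 h.

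**Figure D2:**
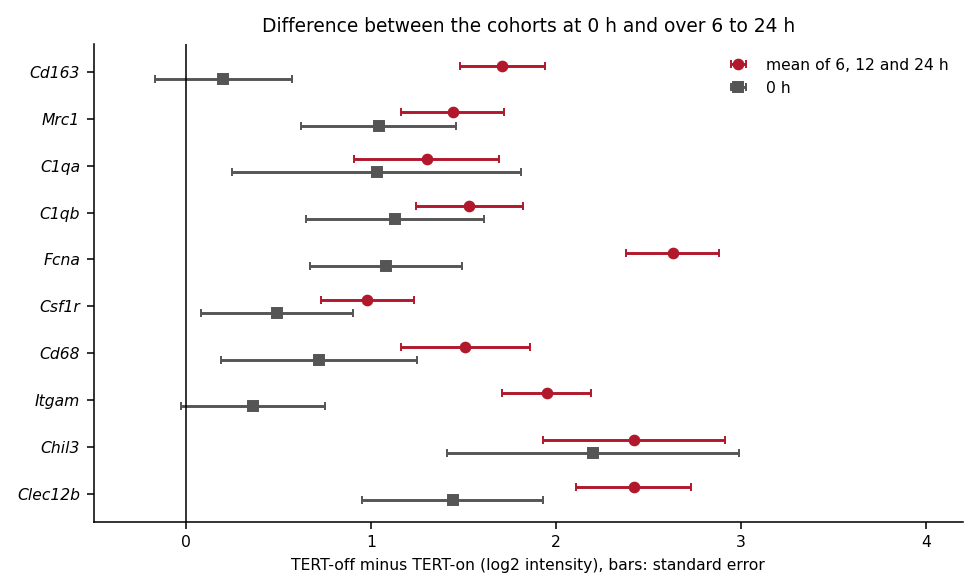
Log2 difference between the cohorts, as TERT-off minus TERT-on, for each gene at 0 h (squares) and as the mean of 6, 12 and 24 h (circles), with standard errors from the limma fit. The later difference exceeded that at 0 h for all 10 genes, least for Chil3 (2.42 against 2.20) and most for Itgam (1.95 against 0.36). The median excess was 0.64 over the 10 genes and 0.05 over all genes, and it was not past the threshold for any of the 10. The 0 h values include the array of low Gapdh ratio.

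At single times fewer genes passed. Fcna alone passed at 6 h (log2 difference 2.55, adjusted p = 0.0274 from limma), where 1.14% of all genes were higher. Fcna (3.33), Cd163 (2.02), Itgam (1.90) and Clec12b (2.19) passed at 12 h, against 1.89% of all genes, and the same 4 genes passed at 24 h, with differences of 2.01, 1.89, 2.32 and 2.94, against 1.83%. The estimates of the other 6 genes were above 0 at every time, from 0.62 to 3.33 on the log2 scale. The largest of them, Chil3 at 24 h, had a standard error of 0.79 and an adjusted p of 0.0588. With TERT-on replicate 1 or TERT-on replicate 2 left out, no gene passed at a single time.

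Within TERT-off mice, Fcna rose from 0 h to the mean of 6 to 24 h by 1.83 (standard error 0.32, adjusted p = 0.0391 from limma) and Itgam by 1.64 (standard error 0.30, adjusted p = 0.0438 from limma), where 0.358% of all genes rose. Cd163 missed the threshold, with 1.47 and an adjusted p of 0.055. Within TERT-on mice no gene passed, with 3 at an unadjusted p under 0.05 and estimates from −0.86 to 1.31. Over all genes 0.183% passed there and 19.6% had an unadjusted p under 0.05, so the members' counts were near those of the whole table. These TERT-on estimates rest on the array of low Gapdh ratio: without it their median was 0.12 instead of 0.43, and the calls of Fcna and Itgam within TERT-off mice were lost, with the estimates unchanged. Compared between the cohorts, the changes from 0 h differed past the threshold for none of the 10 genes and for 0.00795% of all genes, 1 gene in all. For 3 of the 10 genes the unadjusted p was under 0.05, against 14.3% of all genes. The difference was largest for Itgam (1.59), Fcna (1.56) and Cd163 (1.51), each with an adjusted p of 0.294 from limma, and its median was 0.64, or 1.32 without that array.

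The time course differed between the TERT-off mice. In TERT-off replicate 2 the median log2 change of the 10 genes from 0 h was 0.72 at 6 h, 2.01 at 12 h and 1.64 at 24 h. TERT-off replicate 1, already high for several genes at 0 h, had median changes of 1.35, 1.30 and 0.79 over the genes with values. In TERT-on replicate 2 the median changes were −0.03, −0.08 and −0.20. TERT-on replicate 1 had medians of 0.60, 1.33 and 0.74, measured from its array of low Gapdh ratio.

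From 12 to 24 h, in each of the 4 mice, most of the genes were lower. TERT-off replicate 1 was lower at 24 h for all 8 genes with both values, and TERT-off replicate 2 for 8 of 10. Fcna was lower by a log2 change of −1.82 in replicate 2 and −0.84 in replicate 1, and Csf1r by −0.92 and −0.69. Cd163 and Itgam had changed little in replicate 2, by −0.08 and −0.04, and Chil3 was 2.26 times its 12 h value. Each is 1 array against 1 array in a mouse, and no test was made. The TERT-on mice were lower at 24 h for 9 of 10 genes in replicate 1 and 8 of 10 in replicate 2. Of all genes, 45.1% (replicate 1) and 49.1% (replicate 2) were lower in TERT-on skin, against 53.8% and 56% in TERT-off skin.

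**Figure D3:**
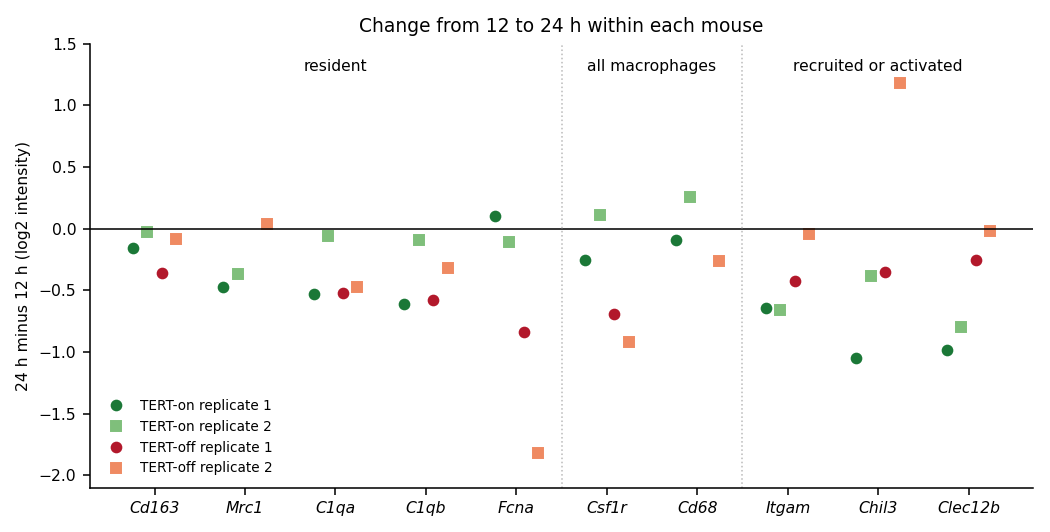
Log2 intensity at 24 h minus that at 12 h in each mouse, 1 point per gene and mouse, in the 3 groups of genes. In TERT-off replicate 2, Fcna lies at −1.82 and Chil3 at 1.18, and most other points lie between −1 and 0.

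Genes of the same systems, from lists that had been written with earlier results known, were read over 6 to 24 h. Of all genes, 16.9% were higher there. At 0 h, with the array of low Gapdh ratio included, list medians ran from −0.18 for keratinocyte genes to 1.52 for C-type lectins. Leukocyte genes had 0.86 and mast cell genes 0.88. Clec4e, Siglec1, Mmp8 and Ccr7, among others, were under 34.4 on all TERT-on arrays of 6 to 24 h. Such genes may have passed the filter only through TERT-off arrays. Of 19 other genes of resident macrophages, 15 were higher and none lower, with a median of 1.32. Lyve1, a hyaluronan receptor that is not specific to macrophages, differed by 2.35. Siglec1 differed by 1.84, the folate receptor Folr2 by 1.79, the platelet factor Pf4 by 1.76 and Adgre1, which encodes F4/80, by 1.33. The 4 that did not pass had differences from −0.14 to 1.16.

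Of 16 genes of monocytes and inflammatory macrophages, 12 were higher and 1 lower, with a median of 1.29. Plac8 differed by 2.27, Clec4e by 2.13 or more, Fcgr4 by 1.84, Clec4d by 1.78 and Ccr2, the chemokine receptor by which monocytes enter tissue, by 1.40. Arg1, the arginase of alternative activation and of epidermis, was lower by −1.07. The median of this list was 0.34 at 6 h, 1.08 at 12 h and 1.77 at 24 h, while that of the other resident genes was 1.15, 1.70 and 1.18. The genes of this list did not share 1 course. Ccr2 (1.50, 1.65 and 1.05), Plac8 (2.15, 2.71 and 1.95) and Ifitm6 (1.16, 2.42 and 0.86) differed most at 12 h. Most others differed most at 24 h, among them Clec4d (−0.48, 1.82 and 3.99) and Fpr2 (−0.13, 0.91 and 2.16). The lists were not tested against each other. Of 8 genes of alternative activation, 6 were higher, among them Rnase2a (2.36), Ccl17 (1.22) and Cd200r1 (0.82), and Arg1 was again the 1 lower.

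The partners of single genes moved with them in part. Csf1, a ligand of Csf1r, was higher by 1.52 (adjusted p = 0.00369 from limma), while Il34, the ligand made by keratinocytes, had a difference of 0.49 (adjusted p = 0.139). In this list of growth factor signalling, 6 of 10 genes were higher and none lower, with Tyrobp (1.49), an adaptor of myeloid receptors, Irf8 (1.19) and Spi1 (1.03) after Csf1. Beside C1qa and C1qb, C1qc, the remaining C1q chain, was higher by 1.32. The list of the classical and lectin pathways also held the complement receptors C3ar1 and C5ar1. Of its 8 genes 7 were higher, C1qc included, with C3ar1 at 1.34, the lectin pathway protease Masp1 at 1.26 and the C1 protease C1s1 at 1.20. Itgb2, the β chain that pairs with Itgam, differed by 0.61 (adjusted p = 0.0232 from limma), less than Itgam itself; Fermt3 (1.16), Itgal (1.08) and Icam1 (0.61) were also higher, 4 of 5 in this list.

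Haemoglobin and iron handling, to which Cd163 belongs, had 4 of 5 genes higher, among them Slc11a1 (1.33), Blvrb (0.84) and Hmox1 (0.73). Slc40a1, the iron exporter ferroportin, was lower by −1.67. Of the chitinase-like genes, Chil1 (1.86) and Chit1 (0.87) were higher, 2 of 3, and Chil4 lay under the filter. Chil1 was among the 4 genes of the whole table that were higher at 0 h, with a difference of 2.32 (adjusted p = 0.031 from limma). Of the C-type lectins near Clec12b, Clec2d was higher (2.18), while Clec7a, at 0.76, did not pass.

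Markers of other cells moved over the same arrays. All 9 leukocyte genes were higher, with a median of 1.33: Fcer1g (1.66), Cybb (1.61), Cd52 (1.51) and Cd53 (1.48) led, and Ptprc, which encodes CD45, differed by 1.25. Of 8 neutrophil genes, 7 were higher, with a median of 2.06 over 6 to 24 h and of 3.48 at 24 h. Ngp, at −0.09, did not pass. Cxcr2, Csf3r and Mmp8 were at most 20.5, 14.9 and 18.5 on TERT-on arrays of 6 to 24 h, under the filter of 34.4. They may have passed it only through TERT-off arrays, which favours a higher TERT-off value in the count and the medians. S100a9 differed by 3.27, Mmp8 by 2.30 or more, Lcn2 by 2.19 and S100a8 by 2.13. The summed intensity of 6 of the 8 was 643 to 1470 on TERT-on arrays and 2053 to 8575 on TERT-off arrays of 6 to 24 h. S100a8 and Ngp were left out for an empty cell. The largest TERT-on values in the sum were of Stfa3 (459 to 810), Lcn2 (64 to 625) and S100a9 (97.5 to 363). Which cells made these transcripts was not tested. Stfa3 was already higher at 0 h, by 2.23 (adjusted p = 0.000905 from limma). Elane, Mpo, Ltf and Camp lay under the filter. The part of neutrophils in the values of Itgam and Chil3 was not tested.

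Of 9 mast cell genes 7 were higher and 1 lower, with a median of 1.50, led by Hdc (1.95), Cpa3 (1.73), Ms4a2 (1.61) and Cma1 (1.58); Tpsab1 was lower by −1.42. The summed intensity of 8 of them, Tpsab1 being left out for an empty cell, was 723 to 1490 on TERT-on and 1561 to 3144 on TERT-off arrays. Mast cells are also known to make Clec12b, and their part in its values was not tested. Of 3 T cell genes Cd3g (1.44) and Cd3d (1.39) were higher. Of 10 genes of Langerhans and dendritic cells 2 were higher, Ccr7 (1.42 or more) and H2-Aa (0.63), and no eosinophil gene had a probe set above the filter.

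Genes of the structural cells were read on the same arrays. Of 7 fibroblast genes 5 were higher, with a median of 0.58 and Pdgfra (1.44), Lum (1.09), Col1a2 (0.58) and Dcn (0.53) in front. Of 5 endothelial genes 4 were higher, with a median of 0.65, led by Tek (0.82), Emcn (0.80), Pecam1 (0.65) and Kdr (0.51). Of 6 keratinocyte genes none was higher and Cdh1 was lower (−0.31), with a median of −0.02. Their summed intensity was 17043 to 23225 on TERT-on and 13711 to 21534 on TERT-off arrays, so epidermis was present in both cohorts.

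**Figure D4:**
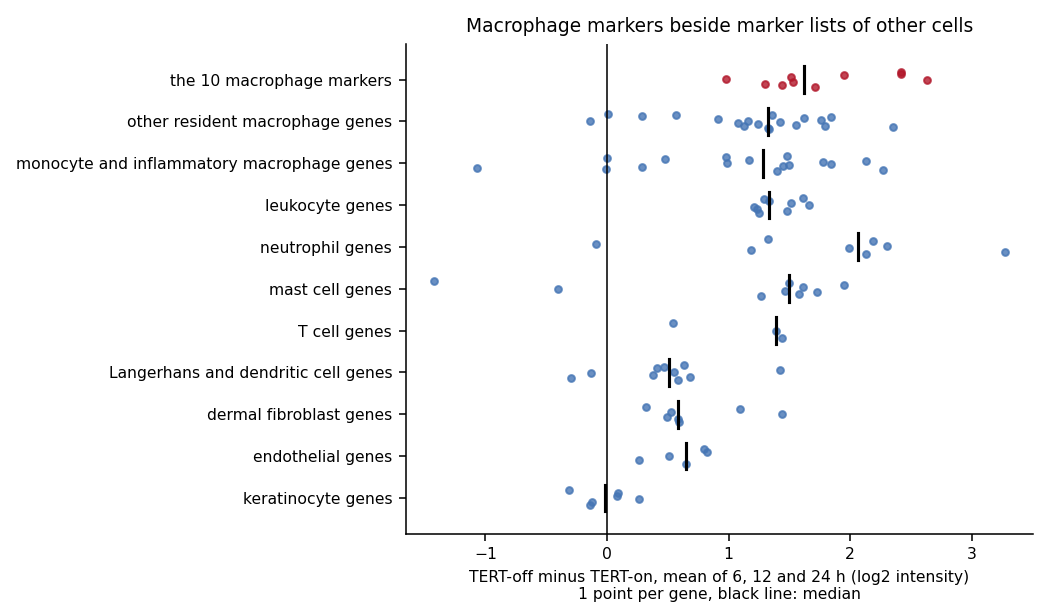
Log2 difference over 6 to 24 h of each gene in the 10 macrophage markers (red) and in marker lists of other cells (blue), 1 point per gene, with the median of each list as a black line. The macrophage markers have a median of 1.62, the neutrophil genes 2.06 and the keratinocyte genes −0.02.

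The 10 genes varied together over the arrays. Pearson's r of their log2 intensities over the 16 arrays, or 15 where a cell is empty, lay between 0.597 and 0.973 in the 45 pairs, with a median of 0.897. The points share 4 mice and 2 cohorts, so these values describe the set and were not tested. The genes outside the set most like each member by the same measure were C1qc for C1qa (r = 0.983) and C1qb (0.989), with Ostf1 after it in C1qb (0.976). For Mrc1 they were Slfn2 (0.99), the leukocyte gene Cd53 (0.985) and Pf4 (0.984). Fcna was most like F13a1 (0.978), which encodes coagulation factor XIII A and is a resident macrophage gene, followed by Gpx3 and Calml4.

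Cd163 was closest to Ctla2a (0.963), Galnt16 and Cyp2b10, and Csf1r to Tnfaip8l2 (0.973), Slc38a6 and Hacd4. Cd68 was closest to Cd37 and Scamp5 (0.977 each) and to Ifitm3. Itgam was closest to Cfp (0.963), which encodes properdin, then to Lox and Alox5ap, and Chil3 to Ifi204 (0.949), Cd53 and Slfn2. Clec12b had the weakest matches, Slc36a2 (0.91), Rap1a (0.905) and the mast cell protease Cpa3 (0.902).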

How the data were processed

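Dorsal skin RNA of 16 biopsies was hybridised to Affymetrix mouse arrays. The authors' deposited values are intensity values on a linear scale, normalized in dChip on an invariant probe set and summarised by the model of perfect-match and mismatch differences. Symbols came from the platform annotation, updated by gene ID.

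Intensities were floored at 7.71, the 20th percentile of all values, and converted to log2. The filter kept 25576 probe sets that exceeded the table median (34.4) on 2 or more arrays, the highest mean standing for its gene. A limma fit (version 3.58.1, R 4.3.3, statmod 1.5.0) had a mean for each of 8 groups and a random block for mouse (correlation 0.0728), with trended moderation. Two-sided p-values were adjusted by Benjamini-Hochberg over all probe sets kept and called under 0.05; where an arm lost a value to an empty cell, the fit used the arrays left. SAM, which the study's methods name, was not run. The fit was tested on simulated data. With 2 mice in each cohort, no exact permutation of mice could give a p under 0.333, and the p-values rest on 1 correlation for all genes. Where mice of a cohort differ more, they may be too small. The number of arrays limits the precision.

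The members and lists were chosen with earlier results of these data known. The genes named were the members, up to 4 called genes of each list with the largest differences, C1qc, Adgre1, Ccr2, Ptprc, Csf1, Il34, Chil4, Itgb2 and Masp1, and the 3 genes most like each member; the hair keratins and Clec7a were named after their values were seen. Promoters came from RefSeq (GRCm38.p6); the table used here has no C1qa entry, and that of Csf1r was not used here. The alternatives covered the floor, filter, normalization, block, trend, probe sets and each mouse left out. Figures were drawn with matplotlib 3.10.9.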

Additional observations from a re-analysis of the deposited data

How the results depend on the processing

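Over 6 to 24 h, none of the 138 values of the 10 genes under 14 alternatives changed direction, 121 kept their call and 17 lost it. All 10 genes were called under every setting other than the following: 7 without the filter on low values, which adds genes to the adjustment, and 2 to 8 with 1 mouse left out. The 8 calls without TERT-off replicate 1 were of 10 genes tested, and the 8 without TERT-off replicate 2 of 8. Leaving out a TERT-on mouse cost most, with 6 genes called without TERT-on replicate 1 and 2, Clec12b and Fcna, without TERT-on replicate 2. Over all genes, the same settings left 471 higher and 103 lower, and 32 higher and 6 lower. Without the filter on low values, 1550 of all 18177 genes tested were higher. Clec12b, of low intensity, differed by 1.54 instead of 2.42 when 16 was added to each value in place of the floor.

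Calls at single times, 9 over 10 genes and 3 times, were 1 without the filter, and ranged from 0 to 12 with 1 mouse left out, the 0 being reached when the mouse left out was TERT-on. At 0 h the count ranged from 0 to 1 with 1 mouse left out. The 2 calls within TERT-off mice were the least stable. They were 0 without the filter, 0 without the mouse as a block, 1 with 1 value per mouse, 0 with the replicate block, 1 without the intensity trend, 1 with the mean of a gene's probe sets, 0 to 1 with 1 mouse left out, and 0 without the 0 h array of low Gapdh ratio. Within TERT-on mice the count ranged from 0 to 1, C1qa passing without TERT-on replicate 2. Where a count fell without a mouse, fewer arrays were fitted; for the other settings the cause was not tested.

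Between the cohorts, the correlation of deviations of same-numbered arrays was −0.0494, −0.125, 0.106 and 0.0848 at 0, 6, 12 and 24 h. Between times for 1 replicate number within a cohort, it ran from −0.154 to 0.317 in TERT-on and from 0.143 to 0.645 in TERT-off. For TERT-on, these values do not settle whether a replicate number is 1 mouse. The fit with the replicate block called 10 genes over 6 to 24 h and 11 instead of 9 at single times, and over all genes 2582 higher and 2028 lower. Clec12b and Chil3 in TERT-on skin lay nearest to the floor.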
